A study of Homo sapiens with 9 samples.

Results

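The regions described here are places in the genome where NKX2-1 and FOXA1 peaks coincided in the lung adenocarcinoma line H3122, and where neither of the other NKX2-1 amplified lines studied, H1819 and H2087, had an NKX2-1 peak. They were chosen by the positions of deposited ChIP-seq peaks. Peaks of the 4 NKX2-1 lists on chromosomes 1 to 22 and X were merged where they overlapped by at least 1 bp, and a region was kept if it held a peak of H3122 NKX2-1 replicate 2, touched an H3122 FOXA1 peak by at least 1 bp and held no H1819 or H2087 peak. This gave 16418 of 59679 merged regions (27.5%), which were 34.4% of the 47751 regions with a replicate 2 peak. They are called H3122-only regions with FOXA1 below.

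The series held 9 samples, of which 5 were precipitated libraries with 1 peak list each. NKX2-1 was precipitated with a Bethyl Laboratories antibody from NCI-H3122 (replicates 1 and 2), NCI-H1819 and NCI-H2087, and FOXA1 with an Abcam antibody from NCI-H3122; the other 4 were inputs. All 3 lines are established human lung adenocarcinoma lines with amplified NKX2-1 per the labels, fixed with formaldehyde and sonicated, with no treatment named. FOXA1 was mapped in 1 line, and no sample had either factor removed. The lists held 7469 and 48071 NKX2-1 peaks in H3122 replicates 1 and 2, 13486 in H1819, 14441 in H2087 and 42437 FOXA1 peaks. No read depths were at hand. A region counts as H3122-only because no peak was listed in the other lines, which had shorter lists than replicate 2, and weaker occupancy there cannot be told apart from less sensitive peak calling.

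NKX2-1 (TTF-1) is a homeodomain factor required for lung and thyroid development, and in the adult lung it marks alveolar type 2 and club cells. FOXA1 is a forkhead factor of endodermal tissues, known as a pioneer factor because it can bind its sites in compacted chromatin. Both factors act largely through distal enhancers in lung epithelium, and amplification of NKX2-1 is a lineage-linked change of lung adenocarcinoma.

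The peak scores behind the choice were modest for most of the 16418 regions and reached the ceiling of the scale for a few. Scores are the authors' own values per peak. They were taken to be −10 log10 of a peak's p-value and are compared only within a list. The replicate 2 score had a median of 164 (quartiles 97.5 and 314), and the FOXA1 score a median of 208 (quartiles 111 and 451). Scores of at least 3100, where the scale saturates, were reached by 26 regions for NKX2-1 and 80 for FOXA1. At the other end, 26.2% of regions scored under 100 for NKX2-1 and 20.6% under 100 for FOXA1, and 1278 regions were under 100 for both. Across the 16418 regions the scores of the 2 factors rose together only in part, with a Spearman rho of 0.315. Both scores share the cell line, and both rose with region width, with rho of 0.560 for NKX2-1 and 0.216 for FOXA1. These values describe the choice of regions and were not tested.

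**Figure D1:**
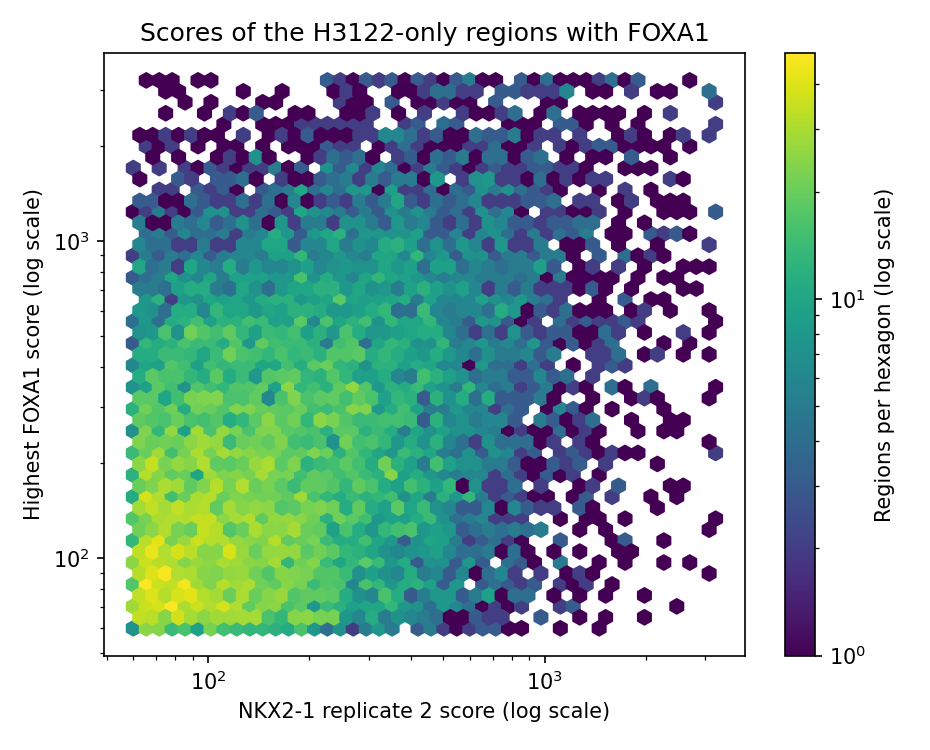
Highest FOXA1 score (y axis, log scale) against NKX2-1 replicate 2 score (x axis, log scale) for the 16418 H3122-only regions with FOXA1; the colour of a hexagon gives the number of regions in it, on a log scale. Most regions lie at low scores of both factors, around the medians of 164 and 208, and strong FOXA1 peaks occur at every NKX2-1 score.

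Within each region the NKX2-1 and FOXA1 peaks lay almost on top of each other. Every region held exactly 1 replicate 2 peak, and 16119 held 1 FOXA1 peak, 296 held 2 and 3 held 3. The median region was 662 bp wide, and a median of 84.5% of its bases (quartiles 70.4 and 96.6) lay under FOXA1 peaks. The midpoint of the NKX2-1 peak fell inside a FOXA1 peak in 15578 regions, 94.9% (95% Wilson interval 94.5 to 95.2), against 94.0% of all regions with replicate 2 and FOXA1 peaks. The midpoints of the best NKX2-1 and FOXA1 peaks were a median of 71.0 bp apart, and 63.6% were within 100 bp. The lists give peak edges and no summits, so midpoints stand in for the places of highest signal. Midpoint distance hardly followed either score across the 16418 regions (rho of 0.0210 for NKX2-1 and -0.00764 for FOXA1). Few regions owed their place to an edge contact, since 176 (1.07%) shared under 100 bp with FOXA1.

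**Figure D2:**
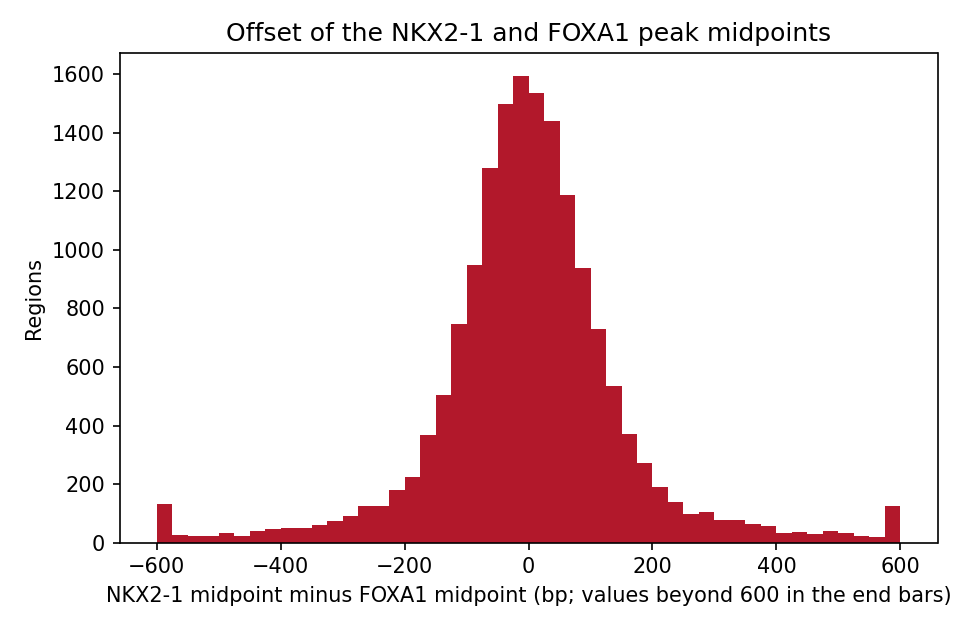
Distance from the FOXA1 to the NKX2-1 peak midpoint in bp (x axis) and number of H3122-only regions with FOXA1 (y axis, bars of 25 bp; distances beyond 600 bp are counted in the end bars). The distribution is centred near 0, with 63.6% of regions within 100 bp.

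The regions nearest to the limit of the rule were ordinary peaks that met FOXA1 at an edge. On the inner side, regions in 5q23.2 (chromosome 5, 125747936 to 125748968, hg18) and 20q12 (chromosome 20, 37939817 to 37940335) shared 1 bp with a FOXA1 peak, and one in 2q32.1 (chromosome 2, 183697221 to 183698246) shared 2 bp. Their replicate 2 scores were 190, 62.7 and 233. On the outer side, regions in 9q22.32, 2p15 and 7p15.3 touched a FOXA1 peak without sharing a base, with replicate 2 scores of 139, 87.0 and 65.8. None of these 6 had a replicate 1 peak.

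Replicate 1 was the NKX2-1 list of H3122 that the rule did not use to choose regions, and it shows which regions were also listed in a second library of the same line. It held 7467 peaks on these chromosomes against 48061 in replicate 2. Most replicate 2 regions therefore could not hold a replicate 1 peak, and the absence of one does not show that a region failed to recur. A replicate 1 peak lay in 1862 of the 16418 H3122-only regions with FOXA1, 11.3% (10.9 to 11.8), close to the 12.5% of all regions with a replicate 2 peak. The share was 5.91% (5.58 to 6.27) of the 17737 H3122-only regions without FOXA1, and 29.0% (27.9 to 30.1) of the 6483 regions with FOXA1 that were shared with H1819 or H2087. Crude, the regions with FOXA1 thus stood 5.43 percentage points above those without (Newcombe 95% interval 4.83 to 6.03) and differed from the shared regions by -17.6 points (-18.9 to -16.4). With scores of at least 100 in every list these differences were 2.57 and -10.6 points. Here and below, that cut also removed replicate 1 peaks under 100, and the median replicate 1 score over the 1862 regions was 77.7. The higher crude share with FOXA1 was seen on 23 of 23 chromosomes. Nothing in the labels says that the replicates came from separate cultures. All intervals here cover counting error over regions only and treat them as independent.

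The comparison with regions without FOXA1 turned round at equal NKX2-1 score. Regions with FOXA1 had the higher replicate 2 scores, with a median of 164 against 96.6 without FOXA1, and a replicate 1 peak was far commoner at high scores. Within deciles of the replicate 2 score, regions with FOXA1 had a replicate 1 peak less often, by -1.88 points (-2.43 to -1.34, Mantel-Haenszel difference over 10 strata). The share was lower with FOXA1 in 10 of 10 deciles, and the interval of the difference lay below 0 in 5 of them. In the eighth decile, at scores of 184 to 254, it was 7.36% with FOXA1 and 11.8% without, and in the highest decile 38.5% and 43.5%. The difference was -0.750 points with scores of at least 100 in every list, and 3.02 points (2.43 to 3.60) when regions were matched on width in place of score.

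Regions with stronger FOXA1 peaks recurred in replicate 1 more often, but not detectably so at equal NKX2-1 score. Among the 16418 regions a replicate 1 peak lay in 7.61% (6.75 to 8.57) of the lowest quintile of FOXA1 scores and in 19.0% (17.7 to 20.4) of the highest. NKX2-1 scores rose alongside, with replicate 2 medians of 122 and 289 in those quintiles. At matched replicate 2 score the highest quintile differed from the lowest by -1.14 points (-2.68 to 0.399), an interval that includes 0 and leaves room for a small difference either way. By NKX2-1 score alone the share climbed from 0.853% (0.509 to 1.43) in the lowest decile of these regions to 50.2% (47.8 to 52.6) in the highest. Of the 2443 regions that scored at least 300 for both factors, 31.9% had a replicate 1 peak, and of the 1278 under 100 for both, 1.02% did.

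Against the shared regions the lower recurrence held at matched score. All regions in this comparison had FOXA1, and the shared ones had the higher replicate 2 scores (median 164 in H3122-only regions and 343 in shared regions). Within deciles of score the H3122-only regions had a replicate 1 peak less often by -5.29 points (-6.39 to -4.18), lower in 10 of 10 deciles. In the highest decile a replicate 1 peak lay in 61.4% (58.3 to 64.4) of 989 H3122-only regions and 71.4% (68.8 to 73.7) of 1302 shared regions. That decile spans scores of 767 to 3217, so these 2 shares are not at equal score. With 20 and 50 score strata the matched difference was smaller, at -4.88 and -4.70 points. The size depended on the kind of sharing: with 10 strata the difference was -13.0 points against regions of all 3 lines, -4.49 against regions shared with H1819 alone and -4.31 against those shared with H2087 alone. With scores of at least 100 in every list it was -3.30 points, matched on score and region width -3.52 points, and matched on score and replicate 2 peak width -4.71 points.

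**Figure D3:**
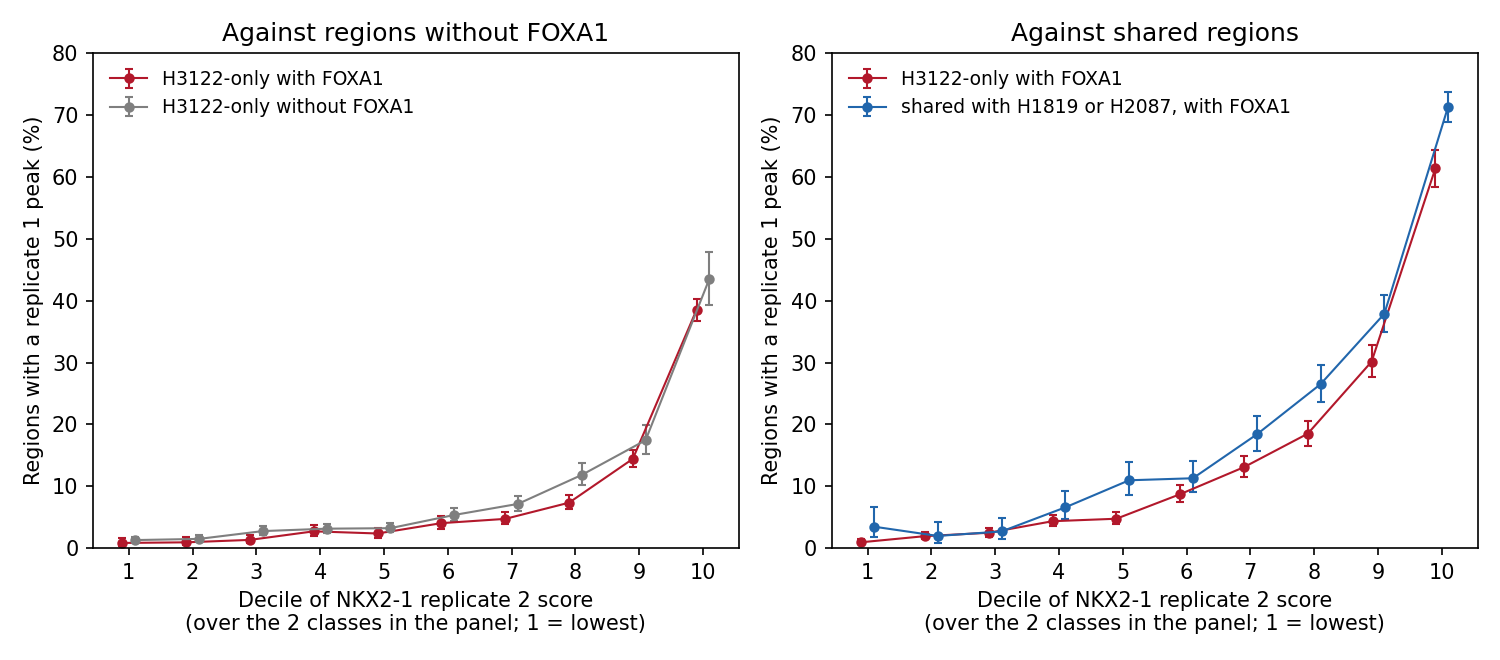
Percentage of regions with a replicate 1 peak (y axis) by decile of the replicate 2 score (x axis), with Wilson 95% intervals. H3122-only regions with FOXA1 (red) are set against H3122-only regions without FOXA1 (grey, left) and against regions shared with H1819 or H2087 with FOXA1 (blue, right); red lies below the other line in 10 of 10 deciles of each panel, and most visibly at high scores on the right, with 61.4% and 71.4% in the highest decile.

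Being listed in H3122 only was itself tied to score. Among all regions with replicate 2 and FOXA1 peaks, the lowest decile of replicate 2 scores held 2060 H3122-only and 229 shared regions, and the highest decile 989 H3122-only and 1302 shared regions. The rule used these lists, so this describes the choice and was not tested.

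The FOXA1 peaks of H3122-only regions were centred on NKX2-1 slightly more often than those of shared regions, a difference that depended on peak width and on the kind of sharing. The NKX2-1 midpoint lay inside a FOXA1 peak in 94.9% of H3122-only and 91.9% (91.2 to 92.5) of shared regions, a difference of 3.01 points (2.28 to 3.78). A shared region counted as having FOXA1 if a FOXA1 peak touched any part of it, including parts outside its replicate 2 peak. That definition can by itself lower the share in shared regions, and its part in the difference was not tested. Midpoints were within 100 bp in 63.6% of H3122-only and 56.3% of shared regions, a difference of 7.34 points (5.93 to 8.76). Replicate 2 peaks were narrower in H3122-only regions, with a median of 662 bp against 815 bp in shared regions, and matched on the width of that peak the midpoint difference was 0.495 points (-0.248 to 1.24). It was 3.96 points matched on replicate 2 score, and 1.93 points (1.18 to 2.68) matched on both. Matched on the width of the merged region, which in shared regions also spans peaks of other lines, it was -1.66 points (-2.43 to -0.884). It was 7.35 points (5.58 to 9.35) against regions of all 3 lines, -0.0925 (-0.982 to 0.929) against those shared with H1819 alone and 3.65 against those shared with H2087 alone. Without replicate 2, with replicate 1 standing for H3122, it was 1.86 points.

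The 10 regions with the highest mean rank of the replicate 1, replicate 2 and FOXA1 scores are the strongest recurrent examples. The first was in 3p12.3 (chromosome 3, 77193934 to 77194960, hg18) and scored 267 in replicate 1, 3100 in replicate 2 and 3100 for FOXA1, with 2 FOXA1 peaks under it. The second, in 1p36.32 (chromosome 1, 4608761 to 4609909), scored 327, 3100 and 2801 in that order, and lay wholly under its FOXA1 peak. The third, in 5q34 (chromosome 5, 160411486 to 160412268), scored 301, 3100 and 2406. For these 3 regions the nearest H1819 peak was 188, 801 and 633 kb away, and the nearest H2087 peak 762, 801 and 630 kb away. The medians over all 16418 regions were 86.3 kb to H1819 and 121 kb to H2087. The others lay in 7p14.1, 2q31.3, 3p14.2, 3q28, 12q24.32, 9q21.31 and 11p11.2. Of these, the 3p14.2 and 11p11.2 regions were nearer to an H1819 peak than the median, at 58.6 and 73.3 kb. The 3q28 region (chromosome 3, 191921615 to 191922639), scoring 206, 3100 and 3062, had its NKX2-1 and FOXA1 midpoints 2 bp apart. Over the 10, replicate 1 scores ran from 184 to 383 against a highest value of 740 among all 1862 regions with a replicate 1 peak.

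High scores in replicate 2 and FOXA1 also occurred with no replicate 1 peak. The 5 highest by mean rank all had FOXA1 scores of at least 3100, where the scale saturates. They included regions in 5p12 (chromosome 5, 45395323 to 45395879) with scores of 1899 in replicate 2 and 3100 for FOXA1, in 11p15.1 (chromosome 11, 21152608 to 21153797) with 1833 and 3100, and in 4q32.1 (chromosome 4, 155758230 to 155758902) with 1598 and 3196. The others were in 1q21.1 and 12p12.1, and unlike those 3 they had H1819 peaks within 10 kb, at 6.91 and 7.88 kb. Differences above 3100 still entered the FOXA1 ranks. The 4q32.1 region thus ranked first with a lower replicate 2 score than the 5p12 and 11p15.1 regions. The widest region, 3441 bp, lay in the centromeric band 14q11.1 (chromosome 14, 18862865 to 18866305). It scored 160 in replicate 1, 1337 in replicate 2 and 1085 for FOXA1.

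H3122-only regions with FOXA1 lay in darkly staining chromosome bands more often than H3122-only regions without FOXA1 or the shared regions, and were closest to the regions shared with H1819 alone. Giemsa staining separates light bands, which are rich in genes and GC, from dark bands, which are gene-poor and AT-rich. Unstained bands held 7198 of the regions, 43.8% (43.1 to 44.6), against 49.7% of all regions with a replicate 2 peak. They held 50.9% (50.1 to 51.6) of H3122-only regions without FOXA1 and 52.2% (51.0 to 53.4) of shared regions with FOXA1. Of the 7113 shared regions without FOXA1 they held 58.2% (57.0 to 59.3). A lower unstained share with FOXA1 was therefore not particular to H3122-only regions. By kind of sharing, unstained bands held 56.4% of regions of all 3 lines with FOXA1, 46.4% (44.4 to 48.4) of those shared with H1819 alone and 55.0% of those shared with H2087 alone. The darkest bands held 18.7% of H3122-only regions with FOXA1, 12.9% of those without FOXA1 and 11.1% of shared regions with FOXA1, with 16.5% of those shared with H1819 alone. Relative to their own mean density, H3122-only regions with FOXA1 were at 1.03 in unstained and 1.13 in the darkest bands, regions without FOXA1 at 1.20 and 0.782, and shared regions with FOXA1 at 1.23 and 0.668. That mean also covers bands outside these stain classes, such as centromeric ones, so 1 is not the average over the stain classes.

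The band difference held at equal NKX2-1 score. Matched on replicate 2 score, the share in unstained bands was -6.18 points (-7.32 to -5.05) relative to regions without FOXA1, and the share in the darkest bands 5.11 points (4.29 to 5.94). The unstained share was lower in 10 of 10 score deciles, with the interval below 0 in each, and lower on 23 of 23 chromosomes without matching. With FOXA1 it was lowest in the highest decile, where the shares were 39.7% (38.0 to 41.5) with FOXA1 and 50.0% (45.7 to 54.3) without. On X the unmatched shares were close, at 53.4% and 54.2%. Relative to shared regions with FOXA1 the matched difference in unstained bands was -9.77 points (-11.3 to -8.27). It was -15.2 points against regions of all 3 lines, -4.14 (-6.38 to -1.91) against those shared with H1819 alone and -12.3 against those shared with H2087 alone. Without replicate 2, with replicate 1 standing for H3122, the difference to regions without FOXA1 was -11.4 points (-14.5 to -8.26). Base composition, open chromatin and copy number were not analysed here, and their part in the band difference was not tested.

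**Figure D4:**
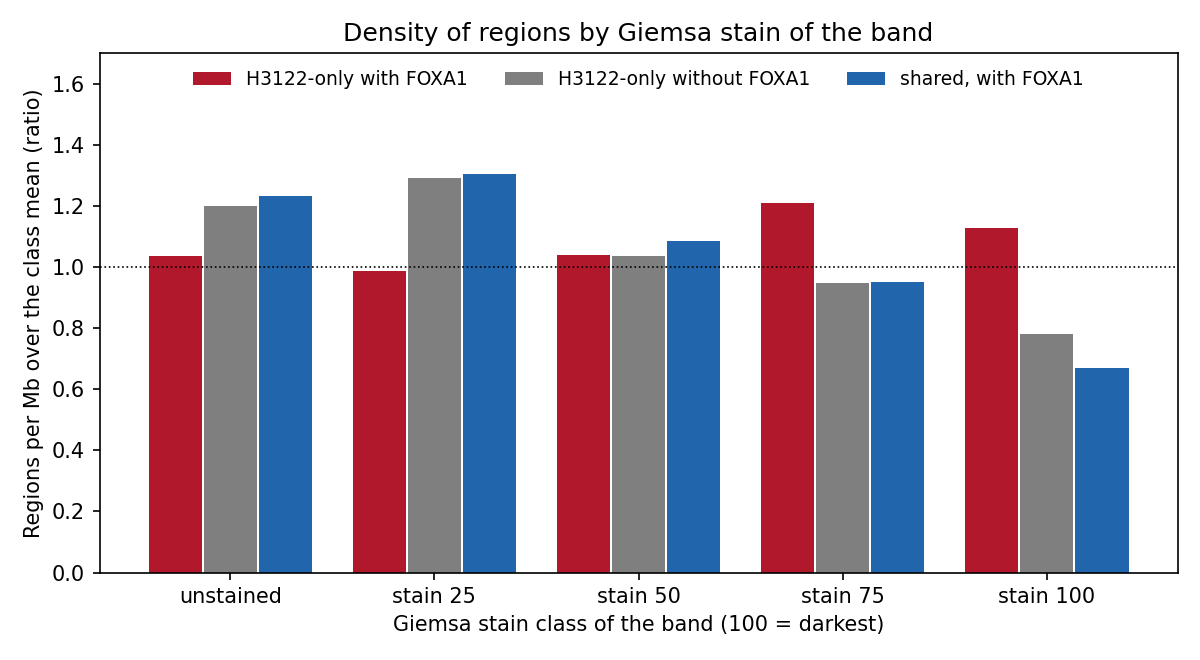
Regions per Mb in each Giemsa stain class of band divided by the mean density of the same class of regions over chromosomes 1 to 22 and X (y axis, ratio; dotted line at 1), from unstained to darkest bands (x axis). The mean also covers bands outside the stain classes shown, such as centromeric ones. H3122-only regions with FOXA1 (red) stay between 0.987 and 1.21, with 1.03 in unstained and 1.13 in the darkest bands, while H3122-only regions without FOXA1 (grey) and shared regions with FOXA1 (blue) drop to 0.782 and 0.668 in the darkest bands.

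Chromosomes also differed in how much of their NKX2-1 occupancy was of this kind. H3122-only regions with FOXA1 made up 45.3% (42.9 to 47.7) of the replicate 2 regions on chromosome 13 and 14.5% (12.6 to 16.5) on chromosome 19, the extremes of the 23. Chromosome 13 is known as gene-poor and chromosome 19 as gene-dense, but the part of gene density in these shares was not tested. The rule also requires a FOXA1 peak. The FOXA1 list held 1863 peaks on chromosome 13, with 1653 replicate 2 regions, and 553 on chromosome 19, with 1257. Chromosomes 22, 16 and 17 were also low, at 20.5%, 23.3% and 23.9%. Chromosomes 18, X and 21 were near the share over all chromosomes, at 32.9%, 32.8% and 35.0%. Per Mb the regions were densest on chromosome 6, with 7.95, and sparsest on X, with 2.19, around a mean of 5.43.

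**Figure D5:**
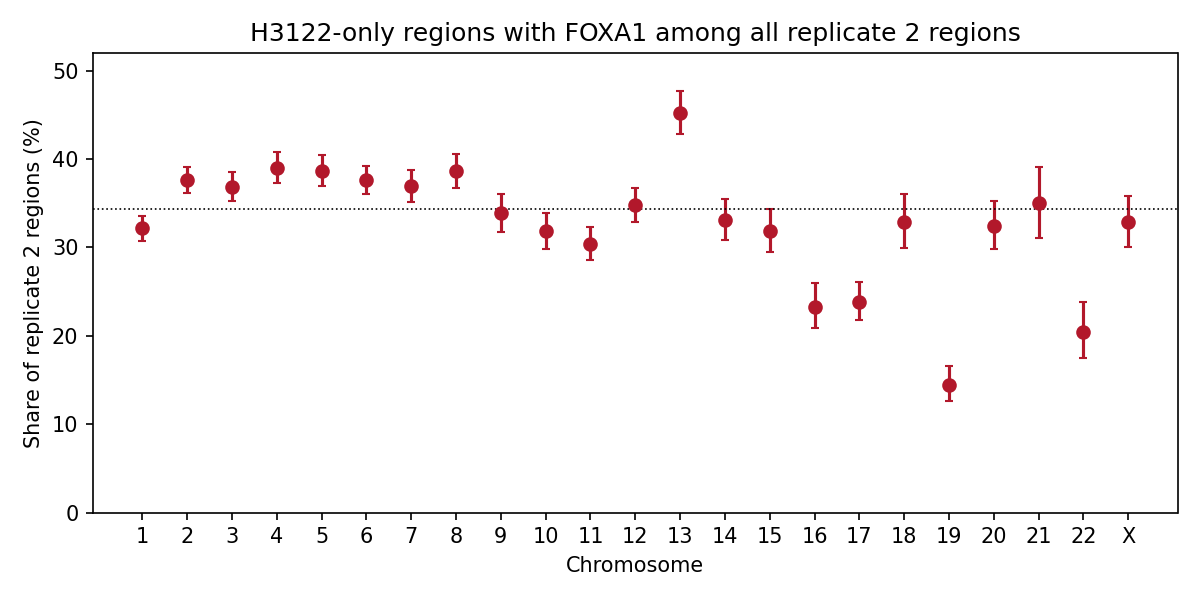
H3122-only regions with FOXA1 as a percentage of all regions with a replicate 2 peak (y axis) on each chromosome (x axis), with Wilson 95% intervals; the dotted line is the share over all chromosomes, 34.4%. Chromosome 13 is highest at 45.3% and chromosome 19 lowest at 14.5%.

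Along the genome these regions had NKX2-1 neighbours somewhat more often than H3122-only regions without FOXA1. Another replicate 2 region lay within 10 kb of 9200 of them, 56.0% (55.3 to 56.8), against 53.9% of all regions with a replicate 2 peak. The share was 51.3% (50.6 to 52.1) in H3122-only regions without FOXA1 and 60.6% (59.4 to 61.8) in shared regions with FOXA1. In shared regions without FOXA1 it was 49.3% (48.1 to 50.5), so the higher share with FOXA1 was not particular to H3122-only regions. At matched replicate 2 score the difference to H3122-only regions without FOXA1 was 2.97 points (1.84 to 4.11), higher in 9 of 10 deciles. Within 25 kb it was 1.15 points (0.156 to 2.15), and with a peak required in both H3122 replicates 1.26 points with an interval that included 0 (-2.92 to 5.43). Relative to shared regions it was -2.99 points (-4.48 to -1.50) at matched score.

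The regions were spread over the genome with a few dense windows. Gene positions in hg18 were not used here and no region is assigned to a gene. The 1 Mb window with the most was at 17 to 18 Mb of chromosome 7 in 7p21.1, with 35 of its 64 replicate 2 regions, 6.44 times the mean density. Windows in 12q21.33 (88 to 89 Mb of chromosome 12) and 5q23.2 (124 to 125 Mb of chromosome 5) held 32 each, of 72 and 75 replicate 2 regions. Windows in 3q12.3 and 12q13.11 followed with 29 and 28. In these 5 windows 13 of 156 regions had a replicate 1 peak, 8.33%, against 11.3% of all 16418. Windows with at least 20 such regions numbered 39 and held 5.52% of them, so dense windows account for a small part.

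By band, 1p31.1 held the most with 107, in 15.2 Mb, followed by 5q23.2 with 103, 5q11.2 with 102, 13q31.1 with 92 and 6q21 with 91. Density gave another order, with 2 bands denser than 7p21.1 and 3 denser than 5q23.2. Of these, 7p21.1, the band of the aryl hydrocarbon receptor gene AHR, had 18.6 per Mb with 80 regions, and 5q23.2, the band of the zinc finger gene ZNF608, had 17.8 per Mb. These were 3.43 and 3.27 times the mean, at percentiles 99.6 and 99.5 among 811 bands of at least 1 Mb, and all replicate 2 regions there were at 2.36 and 2.22 times their own mean. In 5q23.2, 11 of the 103 regions had a replicate 1 peak, and in 7p21.1, 4 of 80. In 6p25.3, which carries the forkhead genes FOXQ1, FOXF2 and FOXC1, there were 13, at 1.04 times the mean. In 12p13.31, which carries the sodium channel subunit gene SCNN1A, there were 23, at 0.901 times the mean and 20.4% of the replicate 2 regions of the band.

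The band of NKX2-1 itself, 14q13.3 (chromosome 14, 35600001 to 36900000, hg18), held 17 of its 50 replicate 2 regions in this class, 34.0%, close to the 34.4% over all chromosomes. These 17 were at 2.41 times their mean density, and all replicate 2 regions of the band at 2.43 times theirs, so the density is not particular to this class. Replicate 1 had a peak in 3 of the 17. The strongest, from 35807585 to 35808851, scored 299 in replicate 1, 1147 in replicate 2 and 1163 for FOXA1. Another, from 35606280 to 35607390, scored 172, 1022 and 1038 in that order, and the third, from 35777421 to 35778350, scored 69.5, 333 and 169. The highest FOXA1 score of the 17 was 1495, in a region from 36660984 to 36661815 with a replicate 2 score of 364 and no replicate 1 peak. Copy number of this band was not measured in these lists, and its part in the density was not tested. The band of FOXA1, 14q21.1, held 16 regions at 0.718 times the mean density; 1 of them, from 39494422 to 39495389, scored 1817 in replicate 2 and 2135 for FOXA1 without a replicate 1 peak.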

How the data were processed

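Per the submitters' processing notes, the authors used Bowtie for alignment to hg18 and MACS 1.4.0 for peak calling. A deposited list gives a position and a score per peak from 1 library; the authors' score was taken as 10 times the negative log10 of the p-value, a reading that rests on the lowest scores (50 in replicate 1, 60 in the others). Read this way, the p-value limit of replicate 1 was looser, although its list was shorter than that of replicate 2. This does not make its peaks weaker, since scores are compared only within a list. The submitters' calling settings, control inputs and read depths were not known.

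Peaks on other chromosomes were left out. Regions were compared as shares with Wilson intervals, differences with Newcombe intervals, and differences at matched score with Mantel-Haenszel differences (Sato variance) over 10 strata of the highest replicate 2 score, all at 95% and with no test over replicates. The code was tested on simulated data with 943 planted regions that met the rule, and it returned 943. Only these totals were compared. Bands came from circlize 0.4.16 in R 4.3.3, lengths from GenomeInfoDb 1.38.1, and the rest from Python 3.11.15 (numpy 2.4.6, pandas 2.3.3, scipy 1.17.1).

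Named regions follow fixed ranks: the 10 highest with and the 5 highest without a replicate 1 peak, 3 on each side of the FOXA1 limit, the widest, and the 5 fullest windows and bands, and set bands. The regions, bands and comparisons were chosen with earlier results of these data known. A motif comparison was not run, since no hg18 sequence was used here.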

Additional observations from a re-analysis of the deposited data

How the results depend on the processing

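Of 86 alternatives over 8 results, 77 kept the direction and the side of 0 of the interval (for the number of regions, stayed within 1.5 times), 4 reversed a difference, 2 brought an interval across 0 and 3 moved the number of regions. The number, 16418, was 1862 with a peak required in both H3122 lists, 10909 with scores of at least 100 in every list, and between 1925 and 16418 when replicate 2 or replicate 1 was left out. Merging without replicate 1 could change little, since it chose no region. The replicate 1 difference to regions without FOXA1 at matched score, -1.88 points, became 3.02 when matched on width alone. It was -2.10 matched on score and width and -2.31 with 50 score strata. The midpoint difference to shared regions, 3.01 points, became 0.495 matched on replicate 2 peak width (1.93 with score as well), -1.66 on merged region width, -0.918 on score and region width, and -0.0925 against regions shared with H1819 alone, settings chosen after the data were seen together with the 50 strata and the matching within chromosomes. The neighbour difference, 2.97 points, was 1.26 with both H3122 lists required, where 1862 regions remained. The lower unstained share, -6.18 points, kept its side of 0 in all 13 alternatives run, from -11.4 without replicate 2 to -4.87 with both lists required. The causes of the reversals were not tested. No paired analysis was possible because only the H3122 NKX2-1 group has a peak list for more than 1 replicate. Depth is unknown, so absence from the H1819 and H2087 lists says only that no peak was listed.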

Other observations

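Some H3122-only regions with FOXA1 lay in runs. With gaps of at most 12.5 kb, the 16418 regions formed 12984 runs, of which 10480 were single regions (63.8% of all). There were 68 runs of at least 5 regions, holding 396. The longest held 10 regions each, in 12q13.11 (chromosome 12, 45226441 to 45266424, hg18), 13q14.11 (chromosome 13, 40476935 to 40525970) and 10q11.23 (chromosome 10, 51791855 to 51832721), and 1 region of each had a replicate 1 peak. In the 13q14.11 run the median FOXA1 score was 521, against 162 in 12q13.11 and 115 in 10q11.23. A replicate 1 peak lay in 9.85% of regions in runs of at least 5 and in 11.01% of single regions. Runs were looked at after the data were seen.

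Distances to the nearest listed peak of the other lines were measured as well, and say nothing of signal below the calling limit. An H1819 or H2087 peak lay within 1 kb of 566 H3122-only regions with FOXA1, 3.45% (Wilson 3.18 to 3.74), and within 10 kb of 20.3% (19.7 to 21.0). Of H3122-only regions without FOXA1, 23.8% (23.18 to 24.4) had one within 10 kb. The difference at matched replicate 2 score was -2.22 points (-3.16 to -1.27).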
